A study of Mus musculus with 8 samples.

Results

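Expression of 47 interferon pathway genes was followed gene by gene in BMEL cells, a bipotential mouse embryonic liver cell line that can take hepatocyte or bile duct fates, after transfection with a GRHL2 expression plasmid. The genes were a fixed list of symbols covering 6 sensors and adaptors, 10 receptors and signalling molecules, 24 antiviral effectors and 7 immunity-related GTPases, and all 47 were found among the 18671 genes of the deposited table. The Ifit genes were not part of the list. Transcriptomes came from 8 samples of the same line, 4 that received the GRHL2 plasmid (pIGrhl2) and 4 that received pcDNA3, all harvested 48 h after transfection and numbered 1 to 4 in each group. GRHL2 is a grainyhead-like transcription factor of epithelial cells, and the comparison asks which interferon pathway transcripts differed in cells made to express it. The GRHL2 construct carries a Flag-tagged human cDNA behind an EF1A promoter and also encodes EGFP, so an effect of GRHL2 and an effect of the other parts of the plasmid cannot be told apart. Both groups were transfected with the same reagent, and no sample here comes from untransfected cells.

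Interferon-stimulated genes form an inducible antiviral programme. Cytosolic sensors bind viral or misplaced nucleic acids and act through the adaptor MAVS and the kinase TBK1 on IRF3 and IRF7, which switch on type I interferon. Secreted interferon binds the receptor IFNAR1-IFNAR2, the kinases JAK1 and TYK2 are activated, and a complex containing STAT2 and IRF9 binds interferon-stimulated response elements (ISREs) in promoters. Interferon gamma acts through gamma-activated sites (GAS) in a parallel branch. The induced proteins include effectors that block viral replication and GTPases that attack the vacuoles of intracellular microbes, and many of them are present at a basal level without infection.

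Promoter sequence was inspected first, because the ISRE is the feature that many of these genes are known to share. RefSeq promoter windows (GRCm38.p6, from 250 bases before to 50 bases after the transcription start) were matched by symbol for 38 of the 47 genes. The ISRE core letters GAAANNGAAA, read on both strands, occurred in the windows of 15 of those 38 genes (39.5%), against 458 of the 12883 genes of the table that have a window (3.56%) and 3.44% of all 32851 windows. They occurred in 6 of the 11 windowed genes whose expression fell with the GRHL2 plasmid under the test described below (54.5%) and in 9 of the 27 that did not pass it (33.3%). All 6 windowed GTPase genes held the core. They are related genes, and the stretches of Igtp and Irgm2 given below are nearly alike, so these are not 6 independent occurrences. The GAS core TTCNNNGAA was found in 13 of the 38 genes (34.2%, against 8.43% of the table's genes), and among the 11 genes that fell it was found in Gbp7 alone. The grainyhead core AACNNGTT was found in Mavs alone among the 38 (2.63%, against 4.18% of the table's genes). In Bst2 the GAS letters overlap the ISRE core. A match of letters is a description of the window and not evidence of binding.

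The following lines give the stretch around the ISRE core for the 6 genes that fell and carry it before the start site, 5′ to 3′ along the gene, with the core letters of either orientation in capitals. They are shown because the same short element recurs at genes from different role groups. Overlapping matches run together, as in Isg15, where 3 cores overlap. The stretches lie at chr4:156200819-156200938 (minus strand), chr12:26456463-26456582 (minus), chr3:142530216-142530335 (plus), chr3:142559924-142560025 (plus), chr3:142620594-142620623 (plus) and chr11:48871428-48871457 (minus). For Gbp2 and Irgm1 the core lies before the RefSeq start but inside a first exon of GENCODE M21, so only 30 bases are given.
Isg15: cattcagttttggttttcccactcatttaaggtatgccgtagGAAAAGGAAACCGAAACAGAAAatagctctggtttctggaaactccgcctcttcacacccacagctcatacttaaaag
Rsad2: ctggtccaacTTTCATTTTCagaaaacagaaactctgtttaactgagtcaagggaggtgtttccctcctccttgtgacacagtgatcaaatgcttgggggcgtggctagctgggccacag
Gbp7: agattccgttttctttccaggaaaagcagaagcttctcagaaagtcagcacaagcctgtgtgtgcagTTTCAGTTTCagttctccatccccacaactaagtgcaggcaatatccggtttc
Gbp3: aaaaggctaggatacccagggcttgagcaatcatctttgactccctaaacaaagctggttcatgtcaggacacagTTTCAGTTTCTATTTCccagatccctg
Gbp2: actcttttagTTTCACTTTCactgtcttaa
Irgm1: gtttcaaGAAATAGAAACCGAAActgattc

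The same element stood at genes that did not pass the test, and 4 of these are shown for contrast. They lie at chr8:71537493-71537612 (minus strand), chr10:128270266-128270385 (plus), chr11:58199436-58199555 (plus) and chr11:58214857-58214976 (plus). Stat2 had a log2 fold change of -0.094, and the other 3 had lower values in GRHL2 samples without passing the adjusted threshold, as described below.
Bst2: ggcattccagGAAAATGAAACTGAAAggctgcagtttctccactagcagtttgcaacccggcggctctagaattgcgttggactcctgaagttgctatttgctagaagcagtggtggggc
Stat2: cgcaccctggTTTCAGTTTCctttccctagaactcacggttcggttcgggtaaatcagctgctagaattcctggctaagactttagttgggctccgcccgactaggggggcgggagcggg
Igtp: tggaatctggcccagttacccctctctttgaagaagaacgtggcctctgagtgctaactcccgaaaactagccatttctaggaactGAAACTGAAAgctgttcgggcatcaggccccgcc
Irgm2: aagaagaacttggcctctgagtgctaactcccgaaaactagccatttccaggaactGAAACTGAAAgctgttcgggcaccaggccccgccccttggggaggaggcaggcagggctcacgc

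Values in the deposited table are on a log2 scale per kb of transcript (the regularized logarithm of DESeq2 less the log2 of transcript length), so they can be compared between genes as well as between samples. They do not allow read totals to be recovered, which leaves the depth unknown, and differences of low genes are shrunken. Means are given ± SD (n = 4 per group), and a range in brackets after a log2 fold change is its 95% confidence interval. The targeted gene separated the groups. Grhl2 had values of 4.68, 4.57, 4.42 and 4.44 in control replicates 1 to 4 and 6.30, 6.96, 5.65 and 6.05 in GRHL2 replicates 1 to 4 (log2 fold change 1.71 ± 0.22 SE, adjusted p = 0.001, limma), although reads of the human cDNA mapped to the mouse gene cannot be told apart from reads of the mouse transcript. The cells carried the keratins of biliary and progenitor epithelium at high level, with Krt8 and Krt19 at the 99.9th percentile of all genes, Hnf4a at the 95.1st and Alb at the 42.5th. Of this list of 12 epithelial and hepatic markers, 3 were called higher (Krt7, Epcam and Cdh1) and 1 lower (Afp), and with the replicate number as a block Krt19, Sox9 and Spp1 were among those called higher. The summed log2 level of the list was 16.74 to 16.94 in control samples and 16.97 to 17.08 in GRHL2 samples. Of 12 immune cell markers 8 were in the table, at levels from the 5.65th percentile for Cd3e and the 10.9th for Ptprc to the 38.1st for Csf1r, the 48th for Cd68 and the 70.3rd for Cd14. None of the 8 was called without the block (0 at an adjusted p under 0.05, and 1, Cd68, at an unadjusted p under 0.05), while with the block Cd68 was called higher in GRHL2 samples (log2 fold change 0.16, adjusted p = 0.0559 without the block and 0.0205 with it, limma). The summed log2 level of the 8 was 8.77 to 8.95 in control samples and 8.77 to 9.09 in GRHL2 samples. Of 5 endothelial and 4 stellate cell or fibroblast markers in the table, 1 was called, Pdgfrb, which was higher in GRHL2 samples, and the block called Kdr, Tek and Col1a1 higher in addition. The part of these markers in the results below was not tested. For bulk samples such as these, fewer cells of a type and less RNA per cell cannot be told apart. One sample stood apart in the interferon genes. Control replicate 3 was the highest of the 4 controls in 33 of the 47 genes (70.2%), and in 3738 of all 18671 genes, so its weight in single fold changes is given after the genes have been described.

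Of the 47 genes, 14 (29.8%) were lower in GRHL2 samples by limma at an adjusted p under 0.05, against 5.91% of all 18671 genes, and 0 were called higher, against 10.5% of all genes. At an unadjusted p under 0.05 the counts were 24 lower (51.1%, against 12.7% of all genes) and 1 higher (2.13%, against 18.4%). The 14 were Tbk1 and Zbp1 among the sensors, Irf7 among the signalling genes, Isg15, Usp18, Xaf1, Rsad2, Trim25, Rnf213 and Mx2 among the effectors, and Gbp2, Gbp3, Gbp7 and Irgm1 among the GTPases. Log2 fold changes were modest, from -0.50 for Irf7 to -0.089 for Gbp7. The median over the 47 genes was -0.13, against 0.0066 over all genes, and 37 of the 47 (78.7%) had a log2 fold change below 0, against 46.1% of all genes.

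Since samples with the same number deviated together, the fit with the replicate number as a block was read beside the first. It called 24 of the 47 lower, against 13.9% of all genes, and 2 higher (Mavs and Irf1), against 18.2% of all genes. The 24 included all 14 of the fit without a block. Without any model, the 4 GRHL2 values lay below all 4 control values in 20 of the 47 genes (42.6%), against 9.47% of all genes, and above them in 0, against 14.3% of all genes. The 20 were the 14 called genes and Oas1a, Bst2, Adar, Ifi44, Igtp and Iigp1. For a single gene this separation gives the smallest p of an exact two-sided permutation test of 4 against 4, which is 0.0286. Scaling the samples to an equal upper quartile or an equal sum left the 14 calls in place but lowered the number of genes with groups apart from 20 to 17 (against 7.13% of all genes) and 16 (against 6.90%). Zbp1 and Iigp1 overlapped under both scalings, Adar under the equal upper quartile, and Oas1a and Igtp under the equal sum. With these scalings the share of higher among all called genes went from 63.9% to 75.9% and 77.0%.

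**Figure D1:**
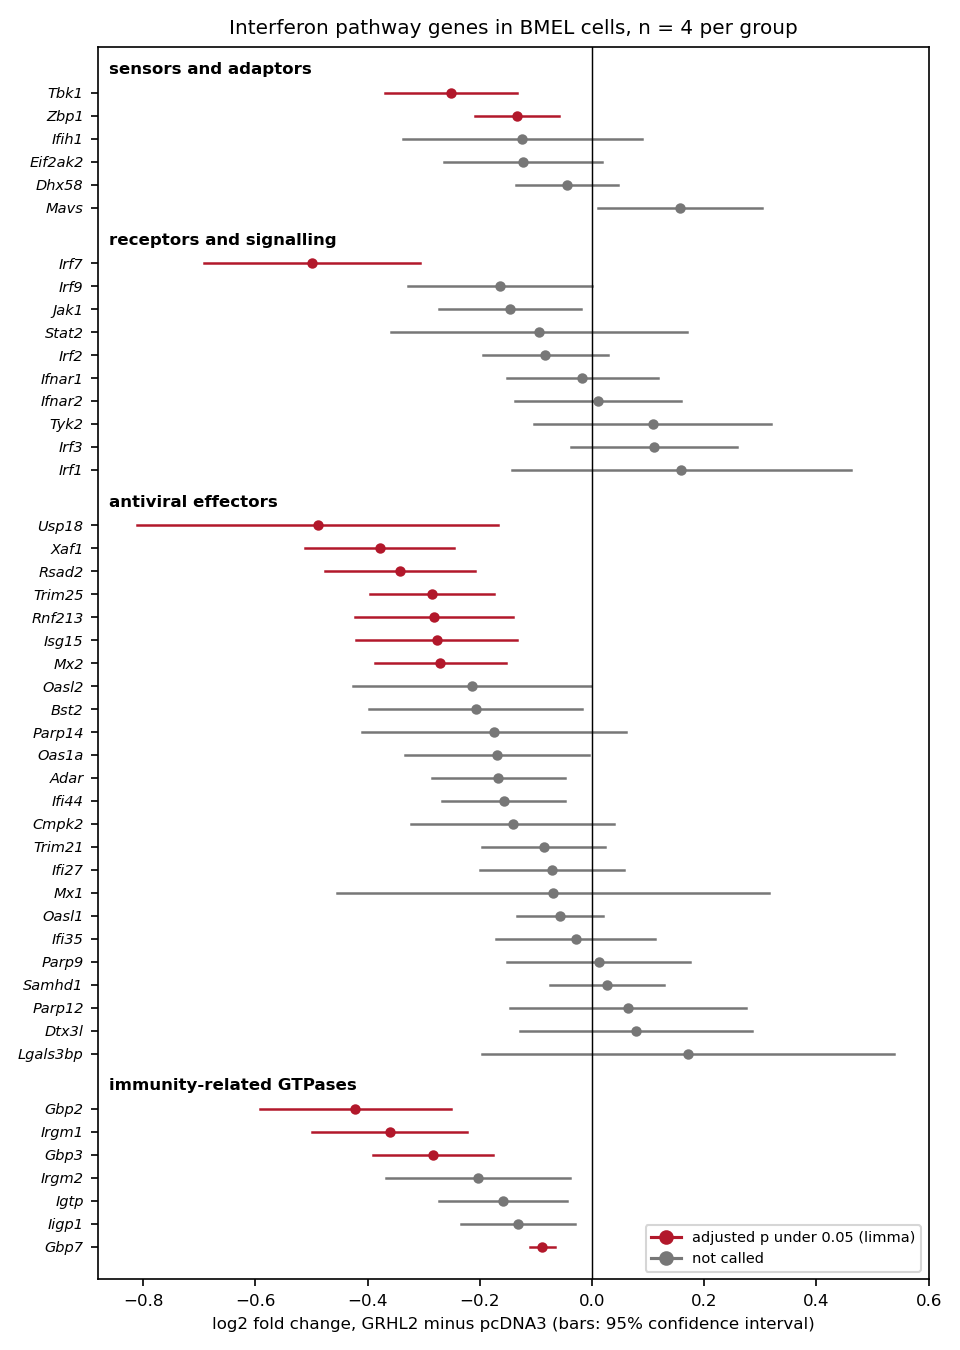
Log2 fold change of each of the 47 genes (x axis, GRHL2 minus pcDNA3, log2 units), grouped by role and ordered within each group, with bars for the 95% confidence interval of limma and red for an adjusted p under 0.05 (n = 4 per group). The 7 GTPases all lie to the left of 0, and the 14 red points span -0.50 (Irf7) to -0.089 (Gbp7).

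Of the 6 sensors and adaptors, 2 were called lower (33.3%, against 5.91% of all genes) and 0 higher (against 10.5%). Tbk1 and Zbp1 were the 2 that fell, and Mavs was the one gene of the 6 with a positive fold change. Tbk1 (chr10:121546455-121586787, GRCm38), the kinase that phosphorylates IRF3 and IRF7, had values of 9.89, 9.99, 9.80 and 9.83 in control replicates 1 to 4 and 9.64, 9.68, 9.60 and 9.59 in GRHL2 replicates 1 to 4. Every GRHL2 sample lay below every control sample, and the level fell by 16% (log2 fold change -0.25 ± 0.053 SE, adjusted p = 0.0113, limma). Zbp1 (chr2:173206612-173218923), a sensor of Z-form nucleic acids that can start necroptosis, had 2.99, 2.94, 2.91 and 2.99 in the controls and 2.82, 2.91, 2.78 and 2.79 in the GRHL2 samples. The groups did not overlap, but GRHL2 replicate 2 came within 0.0054 of the lowest control, control replicate 3, and the groups overlapped under either scaling (log2 fold change -0.13 ± 0.033, adjusted p = 0.0229). Its call was lost when control replicate 1 or 4, or GRHL2 replicate 1, 3 or 4, was left out, with adjusted p between 0.00498 and 0.0683 over the alternatives.

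Mavs, the mitochondrial adaptor of RNA sensing, averaged 8.46 ± 0.056 in the control and 8.62 ± 0.12 in the GRHL2 samples and did not pass (log2 fold change 0.16, adjusted p = 0.133), whereas the blocked fit called it higher (adjusted p = 0.0223), as did the fit without GRHL2 replicate 4. Ifih1, which encodes the long double-stranded RNA sensor MDA5, averaged 6.47 ± 0.17 in the control and 6.35 ± 0.15 in the GRHL2 samples (log2 fold change -0.12, 95% confidence interval -0.34 to 0.089). It was called lower with the block (adjusted p = 0.0443), and without control replicate 3 its log2 fold change was -0.046. Eif2ak2, the RNA-activated kinase PKR that halts translation, averaged 8.80 ± 0.10 in the control and 8.68 ± 0.077 in the GRHL2 samples, and Dhx58, the helicase LGP2 that modulates MDA5, averaged 4.28 ± 0.059 in the control and 4.23 ± 0.055 in the GRHL2 samples. Neither passed with or without the block, with confidence intervals of -0.26 to 0.018 and -0.14 to 0.047.

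Of the 10 receptor and signalling genes 1 was called lower, Irf7, against 5.91% of all genes. Irf7 (chr7:141262706-141266481), the inducible factor that amplifies interferon production, had values of 6.03, 5.81, 6.22 and 5.83 in control replicates 1 to 4 and 5.55, 5.41, 5.42 and 5.51 in GRHL2 replicates 1 to 4. The lowest control, replicate 2, was above the highest GRHL2 sample, replicate 1, and the level fell by 29.3% (log2 fold change -0.50 ± 0.086 SE, adjusted p = 0.00428, limma). Control replicate 3 was the highest sample, and its removal gave a log2 fold change of -0.42.

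The receptor chains did not pass. Ifnar1 averaged 9.26 ± 0.062 in the control and 9.25 ± 0.10 in the GRHL2 samples and Ifnar2 averaged 6.87 ± 0.13 in the control and 6.88 ± 0.057 in the GRHL2 samples, with confidence intervals of -0.15 to 0.12 and -0.14 to 0.16, and the sign of both differences changed when single samples were left out. The sign of Ifnar1 changed with either scaling too. Jak1, the receptor-bound kinase, had the highest level of the 47 genes, with 11.18, 11.35, 11.11 and 11.16 in the controls and 11.04, 11.12, 11.02 and 11.02 in the GRHL2 samples. GRHL2 replicate 2 overlapped the lowest control, replicate 3, and the difference of -0.15 did not pass without the block (adjusted p = 0.107) and passed with it (adjusted p = 0.0106), and it was -0.098 without control replicate 2. Tyk2, its partner kinase, averaged 7.47 ± 0.14 in the control and 7.58 ± 0.17 in the GRHL2 samples (95% confidence interval of the difference -0.10 to 0.32).

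Stat2 and Irf9, subunits of the complex that binds ISREs, differed by -0.094 (-0.36 to 0.17) and -0.16 (-0.33 to -0.00040). Irf9 averaged 7.41 ± 0.13 in the control and 7.24 ± 0.10 in the GRHL2 samples and was called lower with the block alone (adjusted p = 0.0495), and its log2 fold change was -0.10 without control replicate 3. Stat2 averaged 8.13 ± 0.22 in the control and 8.04 ± 0.18 in the GRHL2 samples, and its difference shrank to -0.013 without control replicate 3. Irf1, an activator that also responds to interferon gamma, averaged 8.23 ± 0.26 in the control and 8.39 ± 0.20 in the GRHL2 samples and was called higher with the block alone (log2 fold change 0.16, adjusted p = 0.0268). Irf1 differed by 0.042 on the log2 scale when control replicate 2 was omitted and by 0.086 when GRHL2 replicate 4 was, and neither difference was called in these fits, which had no block. Its antagonist Irf2 had 9.38, 9.40, 9.30 and 9.29 in the controls and 9.29, 9.32, 9.24 and 9.18 in the GRHL2 samples, ranges that overlap (log2 fold change -0.083, adjusted p = 0.294). Irf3, the constitutively present partner of Irf7, averaged 8.93 ± 0.13 in the control and 9.04 ± 0.060 in the GRHL2 samples (log2 fold change 0.11, adjusted p = 0.293). Irf7 and Irf3 thus had fold changes of opposite sign, of which only that of Irf7 passed, and the difference between the genes was not tested.

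Of the 24 antiviral effectors, 7 were called lower (29.2%, against 5.91% of all genes) and 0 higher (against 10.5%). Isg15 and Usp18, the ubiquitin-like modifier and the protease that removes it and also dampens receptor signalling, both fell. Isg15 (chr4:156199424-156200818), whose promoter holds the 3 overlapping cores shown above, had 4.86, 4.87, 5.17 and 4.95 in control replicates 1 to 4 and 4.70, 4.64, 4.72 and 4.69 in GRHL2 replicates 1 to 4. The groups did not overlap, and the GRHL2 samples spanned 0.076 against 0.31 in the controls (log2 fold change -0.28 ± 0.064 SE, adjusted p = 0.0165, limma). Usp18 (chr6:121245906-121270917) had 6.95, 6.72, 7.44 and 6.66 in the controls and 6.44, 6.52, 6.43 and 6.42 in the GRHL2 samples. Control replicate 3 stood 0.49 above the next control, and the level fell by 28.7% (log2 fold change -0.49 ± 0.14, adjusted p = 0.0448). With that control left out, Usp18 differed by -0.32 on the log2 scale and still passed, but the call was lost without the mean-variance trend and when control replicate 1 or any 1 of the 4 GRHL2 replicates was left out, with adjusted p from 0.0118 to 0.103 over the alternatives. Usp18 shares 124 exon bases with Gm44148 on the opposite strand, and under the counting stated in the methods, blind to strand and in union mode, reads that touch exons of both genes are counted for neither.

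In addition, 5 further effectors fell. Xaf1 (chr11:72301629-72313733), a pro-apoptotic partner of the caspase inhibitor XIAP, had 5.62, 5.58, 5.76 and 5.46 in control replicates 1 to 4 and 5.20, 5.24, 5.20 and 5.28 in GRHL2 replicates 1 to 4. Its level fell by 23.1%, with all GRHL2 samples below all controls (log2 fold change -0.38 ± 0.059 SE, adjusted p = 0.00254, limma). Rsad2 (chr12:26442746-26456452), the radical SAM enzyme viperin, had 2.70, 2.56, 2.91 and 2.68 in the controls and 2.36, 2.38, 2.38 and 2.35 in the GRHL2 samples, where the 4 values spanned 0.030. The groups did not overlap (log2 fold change -0.34 ± 0.060, adjusted p = 0.00467). Its neighbour on chromosome 12, Cmpk2, a mitochondrial nucleotide kinase, averaged 4.47 ± 0.12 in the control and 4.33 ± 0.16 in the GRHL2 samples and did not pass (log2 fold change -0.14, adjusted p = 0.269).

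Trim25 (chr11:88999376-89020293), a ubiquitin ligase of the RIG-I pathway and one of the higher genes, had 9.07, 9.19, 9.13 and 9.04 in the controls and 8.88, 8.83, 8.77 and 8.81 in the GRHL2 samples. Control replicate 3 was not its highest sample, and its log2 fold change of -0.29 ± 0.049 (adjusted p = 0.00428, limma) stayed at -0.28 without that sample. Rnf213 (chr11:119393100-119487418), a giant ubiquitin ligase, had 7.13, 7.30, 7.31 and 7.07 in the controls and 6.98, 6.86, 6.96 and 6.90 in the GRHL2 samples. The groups were apart by 0.097 between the lowest control, replicate 4, and the highest GRHL2 sample, replicate 1 (log2 fold change -0.28 ± 0.063, adjusted p = 0.0147), and 8.74% of its exon bases overlap A930037H05Rik on the other strand. Mx2 (chr16:97535308-97560900), a dynamin-like antiviral GTPase that GENCODE M21 types as a polymorphic pseudogene, had 4.50, 4.59, 4.68 and 4.43 in the controls and 4.27, 4.24, 4.28 and 4.31 in the GRHL2 samples. It fell by 17.1% (log2 fold change -0.27 ± 0.053, adjusted p = 0.00774), whereas Mx1, its neighbour on chromosome 16, averaged 5.38 ± 0.34 in the control and 5.31 ± 0.27 in the GRHL2 samples with a difference of -0.070 (-0.45 to 0.31) that changed sign without control replicate 3. Mx1 and Mx2 are related in sequence, and reads that align equally well to both would be left out by the minimum alignment quality of the counting.

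**Figure D2:**
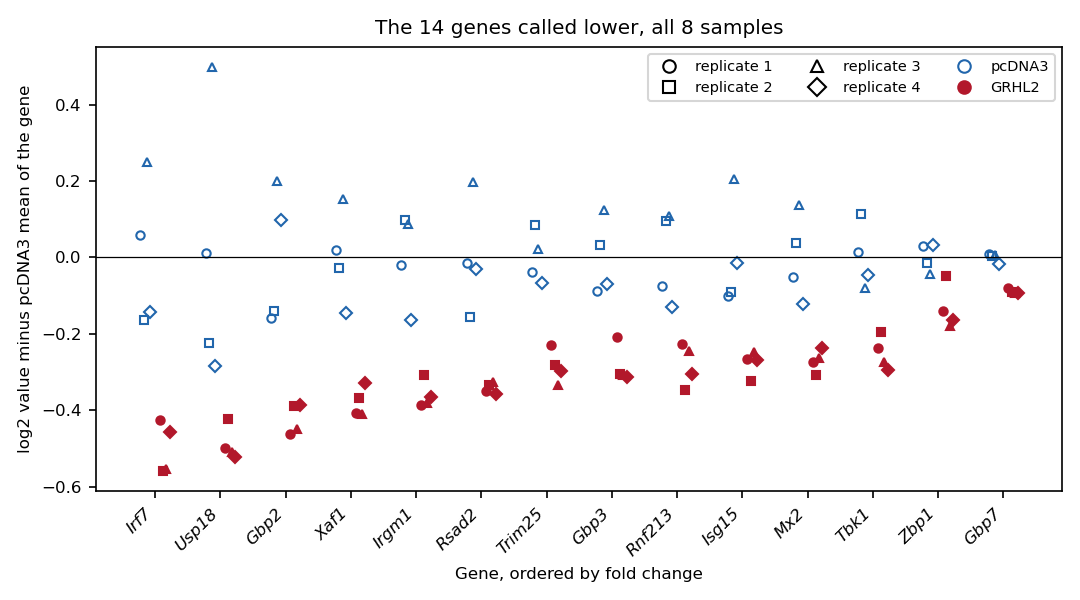
Log2 value of each sample less the pcDNA3 mean of the gene (y axis, log2 units) for the 14 genes called lower (x axis, ordered by fold change), with open blue symbols for pcDNA3, filled red symbols for GRHL2 and the symbol shape for the replicate number. No red symbol lies above a blue one of the same gene, and control replicate 3 is the highest for Irf7, Usp18, Gbp2, Xaf1, Rsad2, Gbp3, Rnf213, Isg15 and Mx2.

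Effectors whose groups were apart without an adjusted p under 0.05 were Oas1a, Bst2, Adar and Ifi44. Oas1a, which makes the 2-5A activator of RNase L, had 2.65, 2.69, 3.02 and 2.64 in the controls and 2.58, 2.57, 2.57 and 2.59 in the GRHL2 samples, and control replicate 3 stood far above the others (log2 fold change -0.17, and -0.079 without that sample). It did not pass with the block either (adjusted p = 0.0593). Bst2, the tetherin that holds budding virions, had 7.79, 7.69, 8.12 and 7.74 in the controls and 7.64, 7.58, 7.64 and 7.65 in the GRHL2 samples. Control replicate 3 was again the high sample (log2 fold change -0.21, -0.11 without it), and the blocked fit called the difference (adjusted p = 0.0377). Adar, the adenosine deaminase that edits double-stranded RNA, had 8.52, 8.61, 8.54 and 8.45 in the controls and 8.31, 8.45, 8.30 and 8.39 in the GRHL2 samples, with a gap of only 0.0030 between GRHL2 replicate 2 and control replicate 4 that closed under an equal upper quartile (log2 fold change -0.17, adjusted p = 0.0586, and 0.0148 with the block). Adar shares 16.8% of its exon bases with Chrnb2 on the opposite strand. Ifi44, a gene of poorly understood antiviral function, was low, with 1.83, 1.79, 2.06 and 1.91 in the controls and 1.74, 1.74, 1.75 and 1.74 in the GRHL2 samples. Its GRHL2 values were nearly identical, at a level where the scale leaves little spread (log2 fold change -0.16, adjusted p = 0.055, and 0.0145 with the block).

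A further 11 effectors besides Cmpk2 and Mx1 did not pass without the block, and of these the block called only Oasl2 (adjusted p = 0.019). Oasl2, an OAS-like protein with a ubiquitin-like tail, averaged 4.93 ± 0.20 in the control and 4.72 ± 0.12 in the GRHL2 samples, and its neighbour Oasl1 averaged 3.44 ± 0.062 in the control and 3.38 ± 0.028 in the GRHL2 samples, with log2 fold changes of -0.21 and -0.056, and of -0.13 and -0.031 without control replicate 3. The ADP-ribosyltransferases did not move one way. Parp14 averaged 4.02 ± 0.25 in the control and 3.85 ± 0.091 in the GRHL2 samples (log2 fold change -0.17, and -0.052 without control replicate 3). Parp12 averaged 7.18 ± 0.21 in the control and 7.24 ± 0.079 in the GRHL2 samples (log2 fold change 0.063, and 0.012 to 0.16 with each sample left out in turn). Parp9 averaged 7.44 ± 0.14 in the control and 7.45 ± 0.080 in the GRHL2 samples (log2 fold change 0.012, and -0.017 to 0.082 in the same way). Dtx3l, the ubiquitin ligase that pairs with PARP9, averaged 5.43 ± 0.19 in the control and 5.51 ± 0.12 in the GRHL2 samples (log2 fold change 0.079, and 0.019 to 0.17). In these 3 genes the highest of the values came from leaving out control replicate 3. Parp9 and Dtx3l share 458 exon bases on opposite strands, where reads are counted for neither gene. Trim21, the cytosolic antibody receptor, differed by -0.086 (-0.20 to 0.023), Samhd1, which depletes nucleotides, by 0.027 (-0.075 to 0.13), Ifi35 by -0.029 (-0.17 to 0.11) and Ifi27 by -0.070 (-0.20 to 0.058). The difference of Ifi27 was -0.0029 without control replicate 1, its highest sample, and that of Trim21 was -0.055 without control replicate 3. Lgals3bp, a secreted glycoprotein and the second highest gene of the list, had 10.24, 9.97, 10.68 and 10.34 in the controls and 10.24, 10.22, 10.71 and 10.75 in the GRHL2 samples. Its groups overlapped, with replicates 3 and 4 of the GRHL2 group above replicates 1 and 2 (log2 fold change 0.17, -0.20 to 0.54), and with single samples left out the difference ran from 0.059 without control replicate 2 to 0.30 without control replicate 3.

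All 7 GTPases had lower values in GRHL2 samples in each of the 4 same-numbered pairs, against 21.3% of all genes. Of the 7, 4 were called lower (5.91% of all genes), and all 7 with the block (13.9% of all genes). Guanylate-binding proteins coat and disrupt the vacuoles of intracellular microbes. Gbp2 (chr3:142620602-142638008) had 4.58, 4.60, 4.94 and 4.84 in control replicates 1 to 4 and 4.28, 4.35, 4.29 and 4.36 in GRHL2 replicates 1 to 4. Replicates 3 and 4 were the high controls, no GRHL2 sample reached the lowest control, and the level fell by 25.3% (log2 fold change -0.42 ± 0.076 SE, adjusted p = 0.00531, limma). Gbp3 (chr3:142560026-142573209) had 3.37, 3.48, 3.58 and 3.38 in the controls and 3.24, 3.15, 3.14 and 3.14 in the GRHL2 samples. Here GRHL2 replicate 1 was the high sample of its group, still below all controls (log2 fold change -0.28 ± 0.048, adjusted p = 0.00396). Gbp7 (chr3:142530342-142550149) lay close to the lower end of the table, with 0.0042, -0.00020, 0.0016 and -0.022 in the controls and -0.083, -0.095, -0.096 and -0.097 in the GRHL2 samples. The groups were apart, and the gene was called lower (log2 fold change -0.089 ± 0.010, adjusted p = 0.000488), at a level before length correction of 1.97 where the regularized logarithm leaves little spread. A filter on a mean value of at least 0 removes Gbp7 from the test. The 3 genes are neighbours on chromosome 3 and paralogs, so reads that fit several copies may be missing from their values, and 11.4% of the exon bases of Gbp7 overlap Gm43802.

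Among the IRG proteins, Irgm1 (chr11:48861968-48871683), a regulatory GTPase of host membranes, was by far the highest. It had 9.98, 10.10, 10.09 and 9.84 in the controls and 9.62, 9.70, 9.62 and 9.64 in the GRHL2 samples. The groups did not overlap, control replicates 2 and 3 were the high samples, and the level fell by 22.1% (log2 fold change -0.36 ± 0.062 SE, adjusted p = 0.0041, limma). Igtp, also known as Irgm3, had 4.18, 4.21, 4.43 and 4.31 in the controls and 4.15, 4.10, 4.14 and 4.11 in the GRHL2 samples, which were apart (log2 fold change -0.16, adjusted p = 0.0616, and 0.0245 with the block). Irgm2 had 3.60, 3.45, 3.82 and 3.54 and 3.33, 3.32, 3.49 and 3.45, where GRHL2 replicate 3 overlapped the lowest control, replicate 2 (log2 fold change -0.20, adjusted p = 0.0898, and 0.00764 with the block). Igtp and Irgm2 share 162 exon bases on the same strand, and reads there are counted for neither. Iigp1, an effector GTPase of this family, was near the bottom with 1.21, 1.19, 1.43 and 1.32 in the controls and 1.157 to 1.159 in the GRHL2 samples, which were all but identical at the lower limit of the scale (log2 fold change -0.13, adjusted p = 0.0775, and 0.0257 with the block).

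Decreases were found from the lowest to near the highest levels of the list. The 5 highest genes by mean level were Jak1 (11.13), Lgals3bp (10.39), Irgm1 (9.82), Tbk1 (9.75) and Irf2 (9.30) in log2 units per kb, between the 80.2nd and the 95th percentile of all genes. Irgm1 and Tbk1 fell, and the other 3 did not pass without the block. The lowest were Gbp7 (-0.049), Iigp1 (1.22), Ifi44 (1.82) and Rsad2 (2.54). Fold changes of low genes are understated on this scale, so sizes are not ranked between low and high genes.

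**Figure D3:**
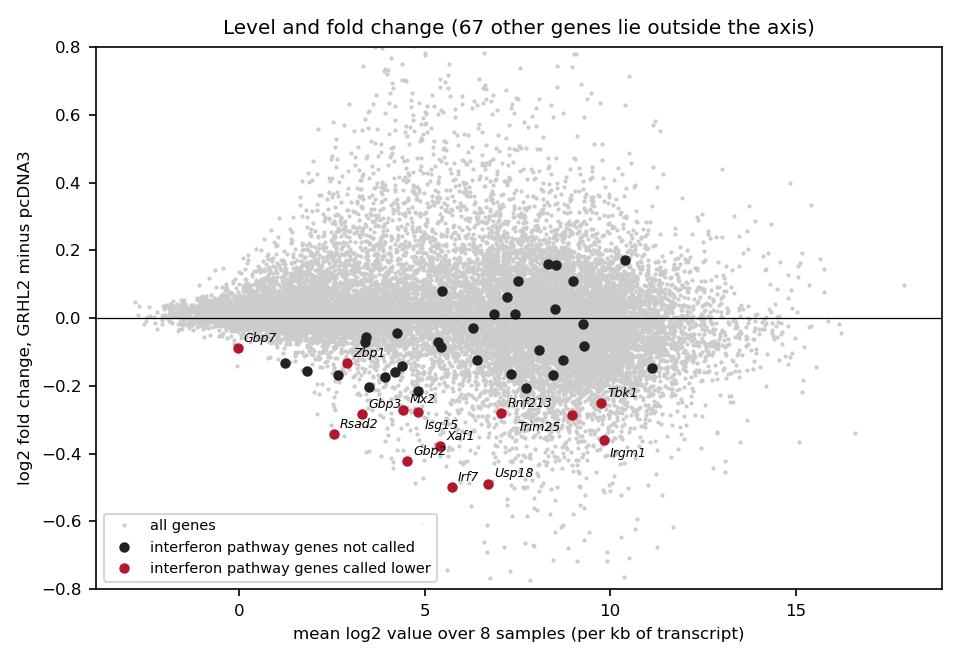
Mean log2 value over the 8 samples (x axis, log2 per kb) against log2 fold change (y axis, GRHL2 minus pcDNA3), for all genes in grey, the 33 interferon pathway genes not called in black and the 14 called lower in red. Genes outside the plotted range of fold changes number 67, and the red points extend from -0.049 for Gbp7 to 9.82 for Irgm1 on the x axis.

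Sample medians over the 47 genes put control replicate 3 above the others. Its median was 0.14 above the control mean, while the medians of the other controls were -0.045, -0.070 and -0.039. The 4 GRHL2 samples had medians of -0.14 each, between -0.136 and -0.143. Every GRHL2 median was thus below every control median. With control replicate 3 left out, the log2 fold change moved by over 1.5 times in 23 of the 47 genes, in 19 toward or past 0 and in 4 away from it, where leaving out any other sample moved 7 to 12. Of the 23 only Usp18 was called. Among genes moved that far by other samples, the log2 fold change ran over the 8 single omissions from 0.047 to 0.17 for Tyk2, -0.17 to -0.013 for Stat2, 0.059 to 0.16 for Irf3 and 0.0070 to 0.046 for Samhd1. Values not yet given without control replicate 3 were Dhx58 at -0.021, Ifnar1 at 0.0010, Ifnar2 at -0.0067, Mx1 at 0.055, Cmpk2 at -0.094, Ifi35 at 0.032, Ifi44 at -0.10, Irgm2 at -0.13 and Iigp1 at -0.084. Without control replicate 3 the 14 calls all held, Ifi44 was added, and the median log2 fold change over the list was -0.094 in place of -0.13. The SD was smaller in the GRHL2 group in 39 of the 47 genes (83.0%), against 47.7% of all genes, with a median SD of 0.056 against 0.13 in the controls. With replicate 3 of both groups left out, chosen after seeing these values, the SD was smaller in the GRHL2 group in 30 of the 47 (63.8%, against 50.0% of all genes), with medians of 0.061 and 0.078. Part of this comparison rests on genes near the lower limit of the scale, where the regularized logarithm leaves hardly any spread (SD among GRHL2 samples 0.0012 for Iigp1, 0.0058 for Ifi44, 0.0066 for Gbp7, 0.0081 for Oas1a and 0.0093 for Ifi27), and there a small SD is no measure of how alike the cultures were. Among the 22 listed genes at or above the median level of all genes, a split also chosen after seeing these values, the SD was smaller in the GRHL2 group in 16 (72.7%, against 54.6% of all genes at such levels). Within replicates 1 and 2 the median difference over the list was -0.090, and within replicates 3 and 4 it was -0.15.

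**Figure D4:**
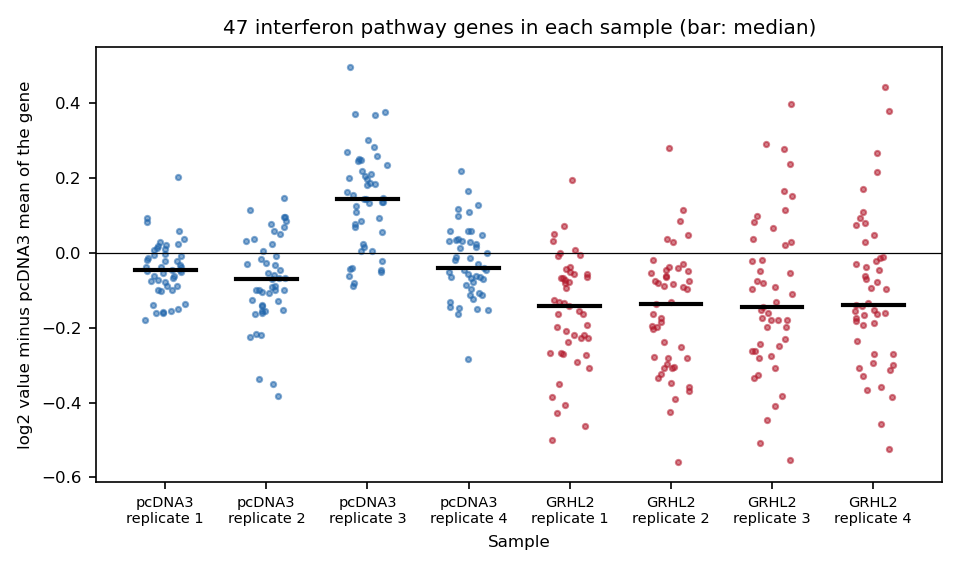
Log2 value less the pcDNA3 mean of the gene (y axis, log2 units) for the 47 genes in each of the 8 samples (x axis), with a black bar at the median. Control replicate 3 is shifted up to a median of 0.14, and the 4 GRHL2 medians lie together between -0.143 and -0.136.

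Other interferon pathway genes were called in both directions. Of 96 further symbols on a second list, 79 were in the table, of which 13 were called lower (16.5%, against 5.91% of all genes) and 7 higher (8.86%, against 10.5%) by limma. With the block 21 were lower (26.6%, against 13.9% of all genes) and 16 higher (20.3%, against 18.2%). Of the interferon ligands listed only Ifnb1, interferon beta, was in the table. It averaged 1.87 ± 0.049 in the control and 1.80 ± 0.00061 in the GRHL2 samples, a difference of -0.066 that did not pass (adjusted p = 0.0959), and the 4 GRHL2 values were nearly the same. The deviations of Iigp1 from its GRHL2 mean were 2.01 to 2.02 times those of Ifnb1 in all 4 samples, so the small spread of both follows 1 pattern and is not a measure of either transcript. Of 46 further effectors, 11 were lower and 2 higher, and 15 and 6 with the block. The lower ones included Oas3 (-0.41) and Oas2 (-0.11), which make 2-5A as Oas1a does, the DNA-binding protein Ifi204 (-0.43) with its relatives Ifi203 (-0.29) and Ifi205 (-0.24), the helicase Ddx60 (-0.32), the exonuclease Isg20 (-0.27), and Znfx1 (-0.41), Helz2 (-0.28), Rtp4 (-0.22) and Trim30a (-0.10), each given with its log2 fold change. The 2 higher ones were Mlkl (0.65), the executor of necroptosis that acts downstream of ZBP1, and Ly6e (0.46). Mlkl averaged 7.76 ± 0.095 in the control and 8.41 ± 0.24 in the GRHL2 samples (adjusted p = 0.00335).

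The counts of the next 3 lists stand against 5.91% of all genes called lower and 10.5% called higher, and those with the block against 13.9% and 18.2%. Of 8 further guanylate-binding and IRG genes, Gbp4 (-0.12) and Tgtp1 (-0.22) were lower, with 4 lower under the block, and none was higher (0 at an unadjusted p under 0.05, and 0 with the block). Among 14 receptor and feedback genes, 0 were lower (1 at an unadjusted p under 0.05, and 2 with the block) and 3 were higher (7 with the block), among them Irf5 (0.39) and Irf4 (0.18). The receptors of interferon gamma and lambda did not pass without the block, with log2 fold changes of 0.031 for Ifngr1, -0.059 for Ifngr2, 0.22 for Ifnlr1 and 0.17 for Il10rb, and the lambda receptor chains Ifnlr1 and Il10rb were called higher with it (adjusted p = 0.00262 and 0.0101). Of 10 further sensing genes, Tlr3 (0.29), the endosomal RNA sensor, and Cgas (0.11), the cytosolic DNA sensor, were higher (3 genes with the block), and 0 were lower (2 at an unadjusted p under 0.05, and 0 with the block). Tlr3 averaged 6.38 ± 0.046 in the control and 6.67 ± 0.029 in the GRHL2 samples (adjusted p = 0.00159). Ddx58, the RNA sensor RIG-I, did not pass (log2 fold change -0.18, -0.36 to -0.0015), nor did Sting1, the adaptor of CGAS (log2 fold change -0.050, -0.19 to 0.090).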

How the data were processed

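Paired-end RNA-seq was done on 4 BMEL samples with the GRHL2 plasmid and 4 with pcDNA3, collected at 48 h and grouped by the sample labels. According to the supplementary legends these are biological replicates. The deposited table bears FPKM in its name, but 7190 of its 149368 values (4.81%) are below 0, and the values were taken as log2 values made by the authors. According to the study's methods, reads were aligned with HISAT2, counted on exons with HTSeq (union mode, so that reads touching exons of several genes are counted for none, without regard to strand, alignment quality of at least 10), genes under a cumulated total of 10 reads were dropped, and DESeq2's regularized logarithm was corrected for transcript length. The submitters' processing notes list HISAT2 2.2.1, HTSeq 0.9.1, DESeq2 1.40.2, mm10 and GRCm39. The methods open with public data, and that they cover these samples is an assumption. Depth is unknown.

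All 18671 genes were fitted with limma 3.58.1 in R 4.3.3 (group as the one term, empirical Bayes, mean-variance trend) and p-values were adjusted by Benjamini-Hochberg over all of them, with a threshold of 0.05. No pseudocount or filter was used. The fit without a block was tested on simulated data with independent noise in each sample. The simulation lacked the shared deviations described next, so it does not bear on them. Same-numbered samples deviated together from their group means (Pearson's r across genes 0.474 to 0.645, numbers from the sample labels), and so did replicates 1 and 2 and replicates 3 and 4 (0.344 to 0.602 between unlike numbers within these pairs, -0.611 to -0.399 across them), so a second fit took the replicate number as a block, and its counts and calls are reported wherever they departed from those of the first. Alternatives were the block, an equal upper quartile, an equal sum, no mean-variance trend, a mean value of at least 0 (17767 genes), each sample left out in turn and the differences within replicates 1 and 2 and within 3 and 4, and those added after seeing the data were the spread without replicate 3 and the spread of genes at or above the median level. The named genes are all 47 listed genes, with values per sample for those called with groups apart and for the 5 highest, and, of the other pathway genes, those called and ligands, receptors and sensors, of which 1 called gene is not reported here. For the 6 listed genes whose groups were apart without a call, and for Irgm2, values per sample were added after they were seen. The genes and lists were chosen with earlier results of these data known, so no list was tested as a whole. Positions and exon overlaps are those of GENCODE M21 (GRCm38) by symbol, and promoter windows those of RefSeq (GRCm38.p6).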

Additional observations from a re-analysis of the deposited data

Results flagged for a closer look

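In 8 of 94 groups of 4 samples, 1 sample lay far from the other 3 (by Dixon's ratio of the gap to the range), where chance gives about 1 in 20, or 4.7. Control replicate 3 was the far sample in 3 of the 8, always high, for Oas1a (3.02), Parp9 (7.65) and Parp14 (4.39). The other control samples far from their group were replicate 1 for Ifi27 (3.63, high) and replicate 4 for Gbp7 (-0.022, low). Among GRHL2 samples these were replicate 1 for Gbp3 (3.24, high) and for Gbp7 (-0.083, high) and replicate 2 for Bst2 (7.58, low). The values are log2 per kb of transcript. Of these genes Gbp3 and Gbp7 were called lower, and both calls held with each sample left out.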

How the results depend on the processing

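The replicate block raised the genes called lower from 14 to 24 of the 47 and from 13 to 21 of 79 other pathway genes. By role, these counts went from 2 to 3 of 6 sensors and adaptors and from 1 to 3 of 10 receptors and signalling genes. They went from 7 to 11 of 24 effectors and from 4 to 7 of 7 GTPases. Those called higher rose from 0 to 2 over the list, 1 in sensors and adaptors and 1 in receptors and signalling. In other pathway genes they rose from 7 to 16. Over all genes the block raised the share called lower from 5.91% to 13.9% and the share called higher from 10.5% to 18.2%. It lost none of the 14 calls. With single samples left out, 12 to 16 of the 47 genes were called lower and 0 to 1 higher. Of all 18671 genes, 690 to 1036 were called lower and 1326 to 1848 higher in these fits. Among sensors and adaptors, 1 to 2 were lower and 0 to 1 higher. Groups were apart with GRHL2 higher in 0 to 1 genes, the 1 being Mavs without GRHL2 replicate 4. With no sample left out, such a separation held in 14.3% of all genes. The median log2 fold change over the list was -0.11 with either scaling (-0.111 for an equal upper quartile and -0.110 for an equal sum), -0.14 with the filter on low values, which removes Gbp7 from the test, -0.16 to -0.094 with single samples left out, -0.090 within replicates 1 and 2 and -0.15 within replicates 3 and 4. The log2 fold change of Ifnar1 turned to 0.0050 with an equal upper quartile and 0.0065 with an equal sum, and ran from -0.057 to 0.022 with single samples left out. The same ranges were -0.043 to 0.050 for Ifnar2, -0.20 to 0.055 for Mx1, -0.017 to 0.082 for Parp9 and -0.076 to 0.032 for Ifi35, none of them called in any of these fits. Calls lost were Usp18 (without the mean-variance trend, control replicate 1 or any GRHL2 replicate), Zbp1 (without control replicate 1 or 4 or GRHL2 replicate 1, 3 or 4) and Gbp7 (filter). The other 11 calls held in all settings. Calls gained without the block were Adar (without the mean-variance trend or GRHL2 replicate 2), Igtp (without control replicate 1), Ifi44 (without control replicate 2 or 3) and Iigp1 (without control replicate 2), all lower, and Mavs (without GRHL2 replicate 4), higher. The cause was not tested. Depth is unknown, and low genes have shrunken differences.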
